A study of Mus musculus with 6 samples.

Results

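The levels of 39 genes of the DNA damage checkpoint and of DNA repair were examined in RNA from polysome fractions of RAW264.7, a transformed mouse cell line of macrophage type. These genes were chosen by symbol from a list of known checkpoint and repair factors, and all 39 had a row among the 19233 genes of the table. Of 6 libraries, 3 came from cells given BMH-21 and 3 from cells given the solvent DMSO, and all 6 were titled M2, the alternatively activated state of macrophages. BMH-21 blocks RNA polymerase I, which transcribes the ribosomal RNA genes. Per the labels, it was given at 500 nM for 24 h from 24 h after polarization. Both groups are from this 1 line, labelled male, with no engineered allele named. The labels describe polarization with IL-4 (20 ng/ml), or with interferon gamma and LPS, for bone-marrow-derived macrophages, and do not state which agent the line received. The design asked how BMH-21 changed the mRNAs carried by polysomes, the part of an extract in which mRNAs hold several ribosomes.

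Cells read DNA damage through kinases that sit at the head of the checkpoint. ATM responds to broken ends held by the MRN complex, and ATR, brought by its partner ATRIP, responds to exposed single-stranded DNA at stalled forks. They pass the signal to CHEK2 and CHEK1, which halt the cell cycle, while repair is done by separate routes: homologous recombination copies the sister chromatid, end joining ligates the ends, the Fanconi anaemia route removes crosslinks, mismatch repair corrects copying errors and base excision repair removes damaged bases. Many recombination and Fanconi genes are transcribed mainly in S phase under E2F factors, whereas end joining acts in all phases of the cell cycle.

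The low steps of the values implied 18770000 to 22560000 reads per BMH-21 library and 21610000 to 24070000 per DMSO library. Across genes, the correlation was 0.997 to 0.9978 between libraries of 1 group and 0.9627 to 0.964 between groups. All 10 macrophage markers were above 1 FPKM (fragments per kilobase of transcript, scaled to library size), with a summed level of 19335 to 20493 FPKM in BMH-21 libraries and 11371 to 11709 FPKM in DMSO libraries. Most of that sum was Lyz2, at 17503 FPKM with BMH-21 and 9471 FPKM with DMSO. Of the 10 markers 7 were called higher and 3 (Csf1r, Adgre1 and Fcgr1) lower. Of 5 T cell markers only Lck was analysed, at 1.88 to 2.09 FPKM in BMH-21 libraries and 2.81 to 3.62 FPKM in DMSO libraries, and the summed B cell and fibroblast markers stayed at or under 0.0918 FPKM in all libraries. The 5 epithelial markers set DMSO replicates 1 and 2 apart from all other libraries. Their sum was 10.9 to 14.2 FPKM in the BMH-21 libraries and 9.73 FPKM in DMSO replicate 3, against 0 FPKM in DMSO replicate 1 and 0.0880 FPKM in DMSO replicate 2. Krt8 and Krt18 made up most of it. DMSO replicate 2 also carries a different molecule label, polyA RNA in place of total RNA. The number of the 39 genes called lower was 21 with all libraries, 21 without DMSO replicate 3 and 21 without DMSO replicate 2. Without DMSO replicate 3 the epithelial level follows the groups, so that count cannot tell it apart from BMH-21.

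With BMH-21, most of the checkpoint and repair genes were lower and none was called higher, except that other scalings of the libraries called Xrcc5, Apex1 or both higher. In 36 of the 39 genes the highest BMH-21 value lay under the lowest DMSO value, against 38% of all genes in the table. Among tested genes this held for 21 of the 23, against 59.5% of all genes tested, and the opposite held for 0 of the 23, against 20.3%. The exceptions were Trp53bp1, Xrcc5 and Apex1, whose groups overlapped. Of the 39 genes, 23 reached 1 FPKM in at least 3 libraries and were tested, and limma called 21 of these lower and 0 higher. Among all 9748 genes tested 58.4% were called lower and 19.9% higher. The median log2 fold change of the 23 genes was −0.58, against −0.23 for all genes tested, a difference of −0.35. Median-ratio scaling, upper-quartile scaling and quantile normalization brought the median of all genes tested to −0.0015, −0.037 and 0.0032, and equal column totals to −0.33. Under these 4 settings 18, 19, 15 and 22 of the 23 genes were called lower and 2, 1, 1 and 0 higher, where over all genes tested 3546, 3883, 3498 and 6623 were lower and 3643, 3349, 3517 and 1389 higher. Of the 23, 21 reached 1 FPKM in every library, and 19 of those 21 were called lower. The other 2, Mdc1 and Pms2, passed the filter through the DMSO libraries alone, so a difference was built into their inclusion. With no filter, limma called 34 of the 39 genes lower and 0 higher, where 33.5% of all genes were called lower and 10.8% higher. Fewer cycling cells, less mRNA per cell and less of an mRNA on polysomes cannot be told apart in these libraries.

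**Figure D1:**
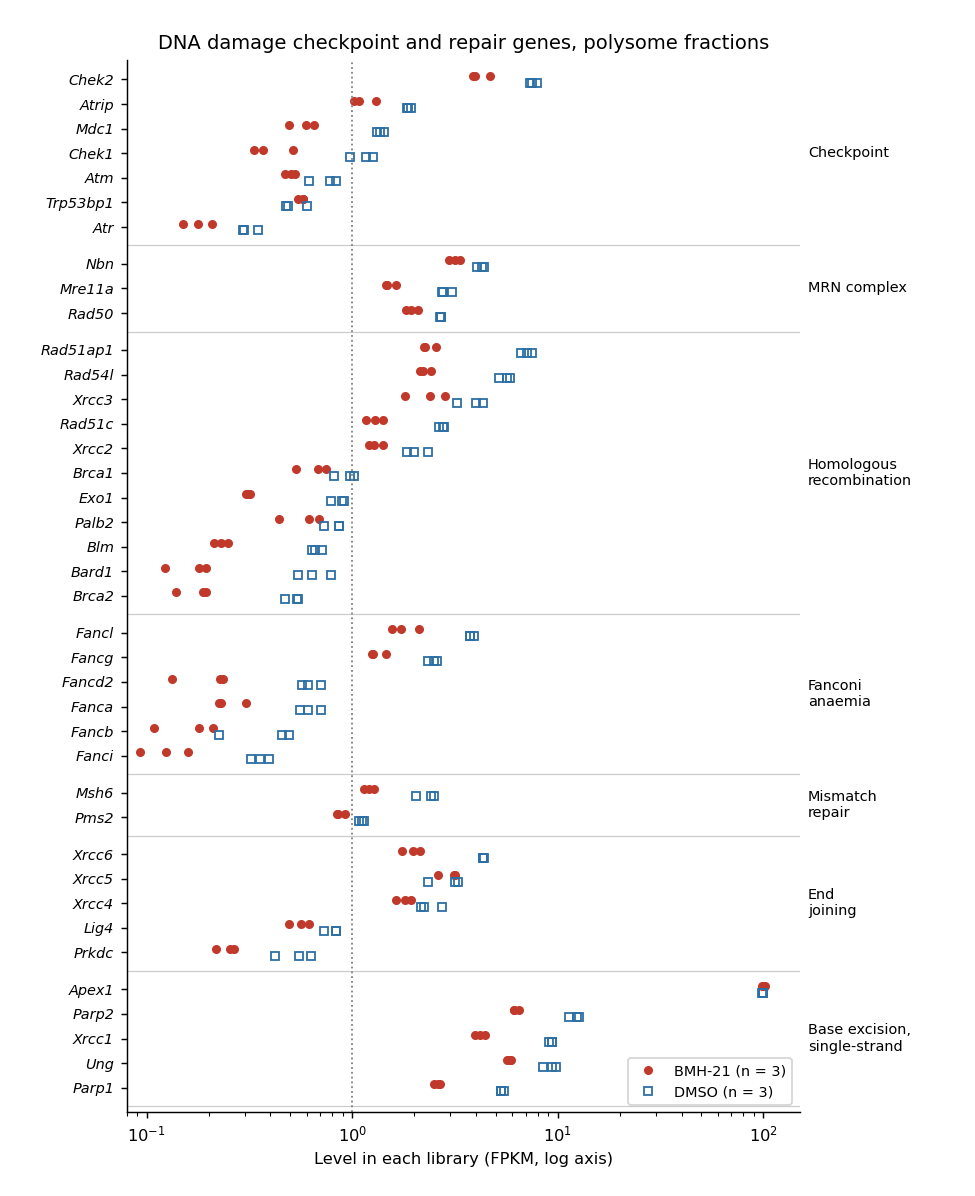
Level of each of the 39 genes in each library (FPKM, log axis), grouped by role and ordered by the DMSO mean. Red circles are the 3 BMH-21 libraries, blue squares the 3 DMSO libraries, and the dotted line marks 1 FPKM. Only Trp53bp1, Xrcc5 and Apex1 have overlapping groups.

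The genes differed widely in level. The DMSO means ran from 0.312 FPKM for Atr to 99.2 FPKM for Apex1, with a median of 2.06 FPKM over the 39 genes, against 1.09 FPKM over all genes in the table. Apex1 stood far above the next gene, Parp2, which averaged 12.2 FPKM in DMSO libraries. The mean was under 1 FPKM for 18 genes in BMH-21 libraries and for 15 genes in DMSO libraries. At the implied depths and with exonic lengths of GENCODE M21, Fancb rested on about 6 to 13 reads per BMH-21 library and 15 to 35 per DMSO library, Bard1 on about 13 to 23 per BMH-21 library and 67 to 108 per DMSO library, and Xrcc1 on about 433 to 553 per BMH-21 library and 1178 to 1317 per DMSO library. These read numbers are approximate, since the transcript lengths used for the table are not known. The coefficient of variation between replicates had a median of 9.45% in BMH-21 libraries and 7.41% in DMSO libraries and was highest for Fancb, at 31.8% in BMH-21 libraries and 37.1% in DMSO libraries. In 14 of the 39 genes at least 100 exonic bases are shared with another annotated gene, mostly on the opposite strand, and the library kit is not stated to mark strand.

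The size of the difference varied between roles. Their order differed between the ratio of group means over all 39 genes and the log2 fold change over the tested genes. In the ratio of group means, BMH-21 over DMSO, the median was 0.405 for 11 homologous recombination genes and 0.416 for 6 Fanconi genes. It was 0.513 for 5 genes of base excision and single-strand break repair, 0.572 for 7 checkpoint genes, 0.655 for 2 mismatch repair genes, 0.699 for 5 end joining genes and 0.724 for the 3 MRN genes. All genes tested had a median ratio of 0.822, and all genes above 0 in DMSO libraries one of 0.773. A ratio of 0.5 or less was found for 18 of the 39 genes: 7 recombination, 5 Fanconi, 2 checkpoint, 2 end joining and 2 base excision genes. By level, these were 8 of the 23 tested genes, where 10.7% of all genes tested had such a ratio, and 10 of the 16 genes under the filter. Over all genes above 0 in DMSO libraries, tested or not, the share was 25.1% (4532 of 18062). Of these 4532 genes 1042 were tested, so 25.1% is not a background for genes under the filter alone. Of the recombination genes 5 of 11 were tested and of the Fanconi genes 2 of 6, so low genes weigh in those medians. Among tested genes alone the median log2 fold change was lowest for base excision and single-strand break repair (−0.83). It was −0.71 for recombination, −0.68 for Fanconi, −0.59 for checkpoint, −0.38 for mismatch repair, −0.34 for MRN and −0.27 for end joining genes. The checkpoint median is the value of Mdc1, and the mismatch repair median includes Pms2. Both genes passed the filter through the DMSO libraries alone, so a difference was built into these role medians. The log2(FPKM + 1) scale understates low genes, and it changed along with the genes covered, so the change of order is not due to the filter alone. Differences between roles were not tested.

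**Figure D2:**
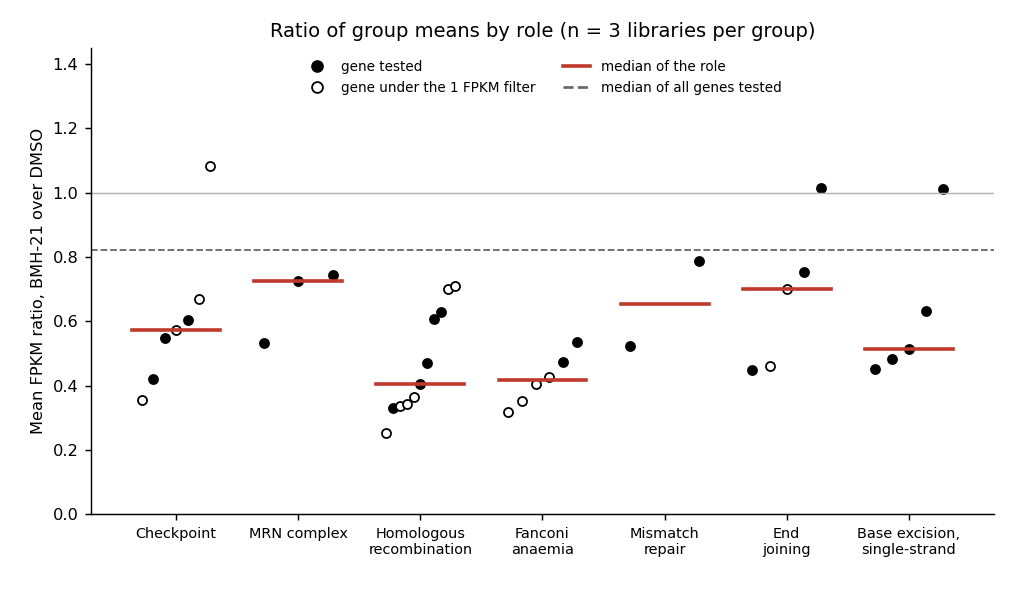
Ratio of mean FPKM, BMH-21 over DMSO (n = 3 libraries each), for the 39 genes by role. Filled points are genes tested, open points genes under the 1 FPKM filter, red bars role medians (0.405 for homologous recombination to 0.724 for the MRN complex), the dashed line the median of all genes tested (0.822) and the grey line no difference.

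Among the checkpoint genes, the 2 effector kinases were both lower. Chek2 (chromosome 5, 110839979 to 110874145, GRCm38), the kinase downstream of ATM, had 4.67, 3.88 and 3.94 FPKM in BMH-21 libraries, against 7.33, 7.95 and 7.45 FPKM in DMSO libraries. Its log2 fold change was −0.74 ± 0.07 (SE, limma adjusted p = 3.12e-06). Chek1 (chromosome 9, 36708482 to 36727065), the kinase downstream of ATR, had 0.368, 0.516 and 0.332 FPKM in BMH-21 libraries, against 0.977, 1.17 and 1.27 FPKM in DMSO libraries. No library of 1 group reached the other in either gene, and the Chek1 mean was 2.81-fold lower with BMH-21. Chek1 fell under the filter, since only 2 libraries reached 1 FPKM, and was called lower with no filter (limma adjusted p = 0.00169).

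The sensor kinases themselves were scarce. Atm had 0.469, 0.501 and 0.525 FPKM in BMH-21 libraries, against 0.615, 0.779 and 0.838 FPKM in DMSO libraries. Atr had 0.207, 0.178 and 0.151 FPKM in BMH-21 libraries and 0.294, 0.347 and 0.297 FPKM in DMSO libraries. Neither was tested with the filter, and both were called lower without it (limma adjusted p = 0.0254 for Atm and 0.00606 for Atr). Atrip, which recruits ATR, fell to 1.14 ± 0.15 FPKM with BMH-21, against 1.88 ± 0.045 FPKM with DMSO (SD, n = 3 each). Atrip shares 1147 exonic bases with Trex1 on the same strand, and Trex1, a DNA exonuclease gene, was at 34.2 ± 1.7 and 62.5 ± 0.76 FPKM in BMH-21 and DMSO libraries, so the Atrip value is uncertain.

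The mediators at damaged chromatin differed. Mdc1, the scaffold that binds phosphorylated H2AX, had 0.596, 0.651 and 0.492 FPKM in BMH-21 libraries and 1.33, 1.43 and 1.37 FPKM in DMSO libraries, and limma gave −0.59 ± 0.06 (adjusted p = 1.2e-05). Mdc1 passed the filter through the DMSO libraries alone, so a difference was built into its inclusion (limma adjusted p = 0.000401 with no filter). Trp53bp1, whose protein steers breaks to end joining, had 0.573, 0.575 and 0.545 FPKM in BMH-21 libraries and 0.487, 0.475 and 0.600 FPKM in DMSO libraries. Those groups overlap, and the gene was under the filter (limma adjusted p = 0.453 with no filter). Trp53bp1 shares 2130 exonic bases with Tubgcp4 on the opposite strand, which was at 3.66 ± 0.12 FPKM in BMH-21 libraries and 3.92 ± 0.059 FPKM in DMSO libraries.

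The 3 genes of the MRN complex, which holds and trims broken ends, were all called lower. The nuclease gene Mre11a (chromosome 9, 14784654 to 14837123) had 1.47, 1.64 and 1.46 FPKM in BMH-21 libraries and 2.75, 3.04 and 2.77 FPKM in DMSO libraries (log2 fold change −0.61 ± 0.06, limma adjusted p = 5.65e-06). Rad50, the ATPase that tethers the ends, was at 1.94 ± 0.13 FPKM with BMH-21 and 2.69 ± 0.018 FPKM with DMSO, and Nbn, which recruits ATM, at 3.14 ± 0.20 FPKM with BMH-21 and 4.24 ± 0.16 FPKM with DMSO (SD, n = 3 each). The calls of Rad50 and Nbn depended on scaling. With quantile normalization both were lost, at log2 fold changes of −0.022 and −0.015, and with median-ratio scaling that of Nbn was lost, at −0.12.

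Of the 11 homologous recombination genes, 7 had a ratio of 0.5 or less. Rad51ap1 (chromosome 6, 126923050 to 126939587), which promotes pairing of DNA strands in recombination, had 2.26, 2.24 and 2.55 FPKM in BMH-21 libraries, against 6.64, 7.06 and 7.52 FPKM in DMSO libraries. Its log2 fold change of −1.27 ± 0.06 was the largest of the 23 tested genes (limma adjusted p = 4.19e-08). The motor gene Rad54l (chromosome 4, 116094264 to 116123690), which remodels DNA during strand exchange, had 2.43, 2.22 and 2.13 FPKM in BMH-21 libraries and 5.19, 5.68 and 5.85 FPKM in DMSO libraries (log2 fold change −1.01 ± 0.06, limma adjusted p = 1.74e-07). Both pairs of groups were far apart. Rad54l shares 1184 exonic bases with Lrrc41 on the opposite strand, and Lrrc41 was at 13.5 FPKM in both groups (limma adjusted p = 0.972).

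The strand exchange factors Rad51c, Xrcc2 and Xrcc3, were lower too. Rad51c had 1.29, 1.40 and 1.16 FPKM in BMH-21 libraries and 2.65, 2.79 and 2.75 FPKM in DMSO libraries, and limma gave −0.71 ± 0.06 (adjusted p = 2.02e-06). Xrcc2 was called lower at −0.41 ± 0.07 (limma adjusted p = 0.000404) and Xrcc3 at −0.55 ± 0.12 (limma adjusted p = 0.00146). Xrcc3 spread widely, with 2.38, 2.84 and 1.80 FPKM in BMH-21 libraries against 4.002, 3.25 and 4.32 FPKM in DMSO libraries. Quantile normalization lost the calls of Xrcc2 and Xrcc3, at −0.15 and −0.22.

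The BRCA genes were all under the filter, and their groups did not overlap. Brca1, the ubiquitin ligase that promotes recombination, had 0.680, 0.535 and 0.749 FPKM in BMH-21 libraries and 0.813, 0.976 and 1.02 FPKM in DMSO libraries. Bard1, its obligate partner, had 0.122, 0.180 and 0.195 FPKM in BMH-21 libraries and 0.793, 0.548 and 0.640 FPKM in DMSO libraries. Its mean was 3.98-fold lower with BMH-21, the largest fold decrease among the 39 genes. Brca2, a mediator of strand exchange, had 0.187, 0.1397 and 0.194 FPKM in BMH-21 libraries and 0.469, 0.536 and 0.547 FPKM in DMSO libraries. With no filter, limma called Brca1 (adjusted p = 0.0451), Bard1 (0.00149) and Brca2 (0.000416) lower. Palb2, the bridge between BRCA1 and BRCA2, had 0.617, 0.688 and 0.439 FPKM in BMH-21 libraries and 0.730, 0.863 and 0.861 FPKM in DMSO libraries and was not called (limma adjusted p = 0.0715 with no filter). With no filter and a pseudocount of 0.1, Brca1 was not called either. The helicase gene Blm averaged 0.231 ± 0.017 FPKM with BMH-21 and 0.670 ± 0.037 FPKM with DMSO, and the resection nuclease gene Exo1, which also serves mismatch repair, 0.314 ± 0.0075 FPKM with BMH-21 and 0.863 ± 0.062 FPKM with DMSO (SD, n = 3 each). Both were called lower with no filter (limma adjusted p = 0.000123 and 0.000161).

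**Figure D3:**
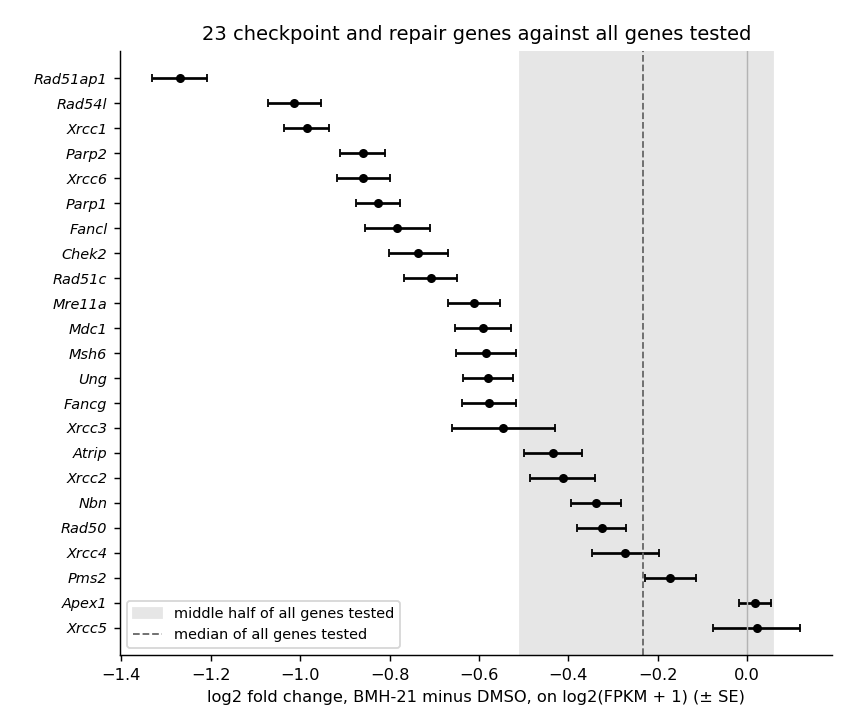
Log2 fold change, BMH-21 minus DMSO, of the 23 tested genes on the log2(FPKM + 1) scale (points, with SE bars). The grey band spans the middle 50% of all genes tested (−0.51 to 0.06) and the dashed line is their median (−0.23), and Rad51ap1 at −1.27 and Rad54l at −1.01 lie at the low end.

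In the Fanconi anaemia route, the core complex assembles on crosslinked DNA and adds ubiquitin to FANCD2 and FANCI. Fancl (chromosome 11, 26386135 to 26471876), the ubiquitin ligase of the core complex, had 2.11, 1.73 and 1.55 FPKM in BMH-21 libraries and 3.73, 3.92 and 3.75 FPKM in DMSO libraries (log2 fold change −0.78 ± 0.07, limma adjusted p = 4.59e-06). Fancg, a core subunit, fell to 1.33 ± 0.12 FPKM with BMH-21, against 2.47 ± 0.13 FPKM with DMSO (SD, n = 3 each). These were the only Fanconi genes above the filter. The substrates were rarer. Fancd2 had 0.228, 0.234 and 0.133 FPKM in BMH-21 libraries and 0.607, 0.705 and 0.568 FPKM in DMSO libraries, and Fanci, its partner, had 0.159, 0.124 and 0.0933 FPKM in BMH-21 libraries and 0.321, 0.357 and 0.392 FPKM in DMSO libraries. Without the filter both were called lower (limma adjusted p = 0.00117 and 0.00125), as was the core gene Fanca, at 0.253 ± 0.044 and 0.623 ± 0.074 FPKM in BMH-21 and DMSO libraries. Fancb, the X-linked core gene, had 0.108, 0.180 and 0.211 FPKM with BMH-21 and 0.492, 0.454 and 0.224 FPKM with DMSO. Its groups nearly touch, and it was not called (limma adjusted p = 0.0676 with no filter). Fanci shares 921 exonic bases with Polg on the opposite strand, and Polg, the mitochondrial DNA polymerase gene, was at 1.11 ± 0.13 and 2.10 ± 0.13 FPKM in BMH-21 and DMSO libraries. On the opposite strand, Fancl also shares 462 exonic bases with Vrk2, and Fanca 920 with Zfp276. Vrk2 was at 0.949 ± 0.12 and 1.71 ± 0.10 FPKM in BMH-21 and DMSO libraries, and Zfp276 at 1.11 ± 0.020 and 1.52 ± 0.17 FPKM.

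Of the mismatch repair genes, Msh6, part of the sensor of mispaired bases, had 1.21, 1.14 and 1.28 FPKM in BMH-21 libraries and 2.04, 2.42 and 2.50 FPKM in DMSO libraries (log2 fold change −0.58 ± 0.07, limma adjusted p = 2.12e-05). Pms2, part of the nuclease that acts after it, had 0.925, 0.846 and 0.853 FPKM in BMH-21 libraries and 1.11, 1.15 and 1.08 FPKM in DMSO libraries. Pms2 passed the filter through the DMSO libraries alone, so a difference was built into its inclusion (limma adjusted p = 0.0113 with no filter). The Pms2 difference was small, at −0.17 ± 0.06 (limma adjusted p = 0.0183), less negative than the median of all genes tested. That call was lost without BMH-21 replicate 2 and without BMH-21 replicate 3 (limma adjusted p = 0.0538 in each case), with median-ratio scaling (−0.032) and with upper-quartile scaling (−0.054), and its sign turned with quantile normalization (0.095).

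In end joining, values differed between the 2 subunits of Ku, the ring that threads onto broken ends. Xrcc6 (chromosome 15, 81987835 to 82040085), which encodes Ku70, had 1.75, 2.13 and 1.97 FPKM in BMH-21 libraries and 4.31, 4.40 and 4.32 FPKM in DMSO libraries, and limma gave −0.86 ± 0.06 (adjusted p = 5.1e-07). Xrcc5 (chromosome 1, 72307421 to 72394952), which encodes Ku80, had 3.13, 2.62 and 3.15 FPKM in BMH-21 libraries and 2.33, 3.18 and 3.28 FPKM in DMSO libraries. The Ku70 groups lie far apart and the Ku80 groups overlap. Xrcc5 was not called (log2 fold change 0.02 ± 0.10, limma adjusted p = 0.849), but was called higher with median-ratio scaling (0.23) and with quantile normalization (0.34). Its sign turned with column totals made equal (−0.070) and without BMH-21 replicate 1, BMH-21 replicate 3 or DMSO replicate 1. Xrcc6 shares 344 exonic bases with Desi1 on the opposite strand, which was at 18.2 ± 0.27 and 22.2 ± 0.49 FPKM in BMH-21 and DMSO libraries.

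The other end joining genes were lower by varying amounts. Prkdc, the catalytic subunit of DNA-dependent protein kinase that binds Ku, had 0.267, 0.218 and 0.255 FPKM in BMH-21 libraries and 0.422, 0.551 and 0.630 FPKM in DMSO libraries, and was called lower with no filter (limma adjusted p = 0.00755). Ligase IV, encoded by Lig4, was at 0.559 ± 0.063 and 0.799 ± 0.059 FPKM in BMH-21 and DMSO libraries (limma adjusted p = 0.0136 with no filter). Its cofactor Xrcc4 was at 1.80 ± 0.15 FPKM with BMH-21 and 2.38 ± 0.32 FPKM with DMSO, and limma gave −0.27 ± 0.08 (adjusted p = 0.00748). The Xrcc4 call was lost with median-ratio scaling (−0.083) and upper-quartile scaling (−0.11), and its sign turned with quantile normalization (0.017).

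The base excision and single-strand break genes were all tested, and 4 of 5 were called lower. Xrcc1 (chromosome 7, 24546289 to 24573440), the scaffold that gathers ligase and polymerase at nicks, had 3.95, 4.20 and 4.43 FPKM in BMH-21 libraries and 9.39, 9.35 and 9.11 FPKM in DMSO libraries (log2 fold change −0.99 ± 0.05, limma adjusted p = 6.09e-08). The nick sensors Parp1 and Parp2, which build poly(ADP-ribose) at breaks, both fell. Parp1 had 2.61, 2.49 and 2.66 FPKM in BMH-21 libraries and 5.30, 5.49 and 5.29 FPKM in DMSO libraries, and Parp2 had 6.11, 6.46 and 6.15 FPKM in BMH-21 libraries and 11.4, 12.4 and 12.7 FPKM in DMSO libraries. Their log2 fold changes were −0.83 ± 0.05 and −0.86 ± 0.05 (limma adjusted p = 1.71e-07 and 1.77e-07). Ung, the glycosylase that removes uracil, fell to 5.83 ± 0.13 FPKM with BMH-21, against 9.23 ± 0.69 FPKM with DMSO (SD, n = 3 each).

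Apex1 (chromosome 14, 50924968 to 50927139), the endonuclease that cuts at the abasic site left by UNG, differed from these. It had 98.4, 102 and 100.9 FPKM in BMH-21 libraries and 99.8, 98.2 and 99.6 FPKM in DMSO libraries, and its groups overlapped (log2 fold change 0.02 ± 0.04, limma adjusted p = 0.662). That value lay 0.25 above the median of all genes tested. With median-ratio and upper-quartile scaling it was called higher, at 0.30 and 0.25, with column totals made equal it was called lower, at −0.10, and with quantile normalization it was not called (−0.014). Of its 1422 exonic bases, 877 are shared with Pip4p1 on the opposite strand, so its value is uncertain.

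A ratio of 2 genes within a library does not change when the whole library is multiplied by a factor, though quantile normalization can change it, and 13 pairs of partners were followed. The groups did not overlap in 7 of them, against 63.2% of all 741 pairs among the 39 genes. Xrcc6 over Xrcc5, the mRNA ratio of Ku70 to Ku80, was 0.558 to 0.811 in BMH-21 libraries and 1.32 to 1.85 in DMSO libraries. Bard1 over Brca1 was 0.180 to 0.337 in BMH-21 libraries and 0.561 to 0.975 in DMSO libraries. Chek1 over Chek2 was also lower, at 0.0788 to 0.133 with BMH-21 and 0.133 to 0.170 with DMSO, where the nearest libraries of the groups were almost equal. Within the MRN complex, Rad50 over Mre11a was 1.18 to 1.41 in BMH-21 libraries and 0.877 to 0.985 in DMSO libraries, and Nbn over Mre11a was 1.92 to 2.27 in BMH-21 libraries and 1.44 to 1.53 in DMSO libraries. Apex1 over Ung was 16.8 to 17.7 with BMH-21 and 10.2 to 11.8 with DMSO, and Palb2 over Brca2 2.26 to 4.93 with BMH-21 and 1.56 to 1.61 with DMSO. The remaining 6 pairs overlapped, among them Parp2 over Parp1, at 2.31 to 2.59 in BMH-21 libraries and 2.15 to 2.40 in DMSO libraries, and Fanci over Fancd2, at 0.530 to 0.69996 in BMH-21 libraries and 0.506 to 0.691 in DMSO libraries. With 3 against 3 libraries an exact permutation test of a single ratio cannot go below p = 0.10.

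**Figure D4:**
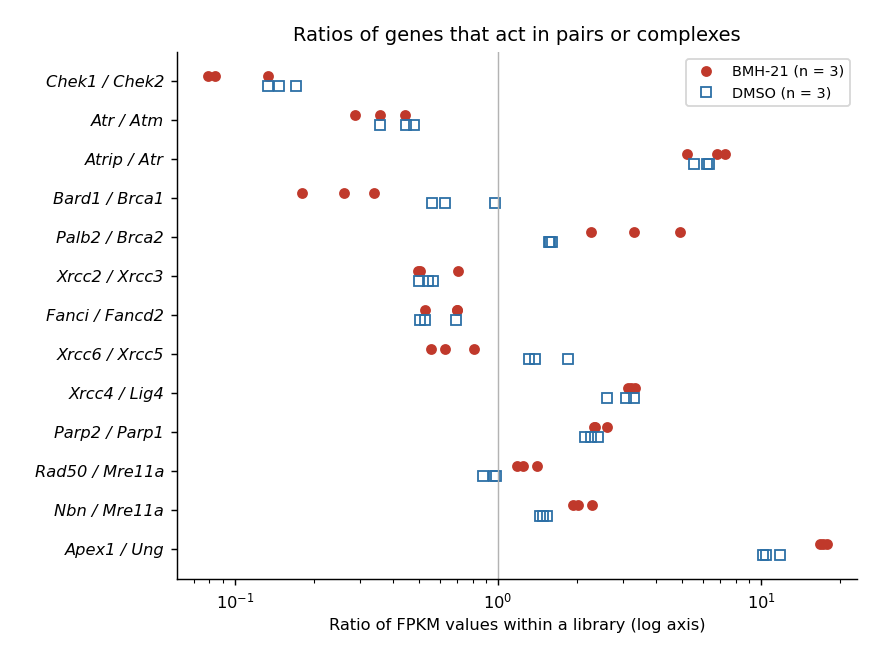
Ratio of the FPKM values of 2 genes within each library (log axis) for the 13 pairs. Red circles are the 3 BMH-21 libraries and blue squares the 3 DMSO libraries. Xrcc6 over Xrcc5 lies below 1 in all BMH-21 libraries (0.558 to 0.811) and above 1 in all DMSO libraries (1.32 to 1.85).

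Promoter sequences were read because many of these genes fell together. RefSeq (GRCm38.p6) gave a promoter, 250 bases before to 50 bases after the start, for 33 of the 39 genes. Not matched were Rad50, Nbn, Xrcc2, Exo1, Fancd2 and Prkdc. E2F words, the sequences TTTCCCGC, TTTCGCGC, TTTGCCGC and TTTGGCGC on either strand, were found in 8 of the 33 genes (24.2%), against 5.1% of 7703 tested genes and 6.3% of 4558 genes called lower that had a promoter. The 8 genes were Chek2, Mdc1, Xrcc6, Fancg, Bard1, Brca2, Rad51c and Msh6. Their ratios of group means ran from 0.251 to 0.549 with a median of 0.460, and those of the other 25 genes from 0.332 to 1.08 with a median of 0.572. Rad51ap1 and Rad54l, with the largest falls among those of the 39 genes that were tested, held none of the words. Only exact words were counted, so a site that differs from them by a letter was missed. The word CCAAT, the box bound by NF-Y, was found in 57.6% of the 33 genes and 43.6% of tested genes, on either strand, and TTTGAA or TTCGAA, the cell cycle homology element, in 9.1% and 16.6%. Words of these sets may share bases, and a match is a description of the letters only.

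The 2 Ku promoters are shown because these partners differed in response, and those of Bard1 and Mdc1 because they held an E2F word and belong to the genes with ratios of 0.5 or less. Capitals mark the E2F word, and each run reads 5′ to 3′ on the strand of the gene. The Xrcc6 window is chr15:82016119-82016418 on the plus strand, with its word starting at −46 from the start site. The Xrcc5 window is chr1:72307171-72307470 on the plus strand and holds no E2F word. The Bard1 window is chr1:71102923-71103222 on the minus strand, with its word at −209, and the Mdc1 window is chr17:35841248-35841547 on the plus strand, with its word at −16.
Xrcc6: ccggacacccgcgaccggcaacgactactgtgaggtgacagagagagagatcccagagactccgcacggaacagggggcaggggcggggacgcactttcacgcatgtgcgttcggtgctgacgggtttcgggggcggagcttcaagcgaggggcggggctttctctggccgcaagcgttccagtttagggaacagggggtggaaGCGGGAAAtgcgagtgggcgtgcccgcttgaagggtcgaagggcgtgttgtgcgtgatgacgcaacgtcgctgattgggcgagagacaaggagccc
Xrcc5: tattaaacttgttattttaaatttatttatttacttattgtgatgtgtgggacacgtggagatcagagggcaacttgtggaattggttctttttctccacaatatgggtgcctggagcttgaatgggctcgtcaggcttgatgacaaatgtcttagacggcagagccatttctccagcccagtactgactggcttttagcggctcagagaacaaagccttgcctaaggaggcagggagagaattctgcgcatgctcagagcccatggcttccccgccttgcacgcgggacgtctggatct
Bard1: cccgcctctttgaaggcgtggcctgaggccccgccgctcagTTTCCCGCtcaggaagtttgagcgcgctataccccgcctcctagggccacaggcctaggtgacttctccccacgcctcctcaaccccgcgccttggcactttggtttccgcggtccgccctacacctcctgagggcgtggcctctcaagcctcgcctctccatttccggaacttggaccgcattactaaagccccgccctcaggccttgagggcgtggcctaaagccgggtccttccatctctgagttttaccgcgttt
Mdc1: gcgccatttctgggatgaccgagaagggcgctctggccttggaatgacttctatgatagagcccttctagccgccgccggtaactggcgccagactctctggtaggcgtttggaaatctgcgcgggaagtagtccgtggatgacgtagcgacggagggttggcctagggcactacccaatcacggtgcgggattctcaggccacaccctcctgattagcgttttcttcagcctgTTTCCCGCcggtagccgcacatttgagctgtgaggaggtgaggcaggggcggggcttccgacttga

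A list of 136 other checkpoint and repair genes was read beside the 39. Of these, 133 had a row and 112 were tested, of which 81 were called lower, 7 higher and 24 neither, beside 58.4% lower and 19.9% higher among all genes tested. Of the 112, 14 had no BMH-21 library at 1 FPKM and 1 had no DMSO library there, so a difference was built into their inclusion, and these make up 14 of the 81 and 1 of the 7. The median of the 112 genes was 0.15 below that of all genes tested (−0.15). By list, tested or not, the median ratio of group means was 0.628 for checkpoint, 0.512 for recombination and 0.703 for Fanconi genes. It was 0.490 for mismatch repair, 0.824 for end joining and 0.727 for base excision, single-strand break and direct repair genes. Nucleotide excision genes had 0.824 and translesion genes 0.903. The checkpoint genes among the 112 had 20 of 22 lower and 0 higher. Cdc25b and Cdc25c, phosphatases that CHEK1 and CHEK2 hold in check, fell to 9.10 ± 0.27 and 0.333 ± 0.074 FPKM with BMH-21, against 28.2 ± 0.78 and 2.28 ± 0.070 FPKM with DMSO. Cdc25c was among those that passed the filter through the DMSO libraries alone. Uimc1, which brings BRCA1 to ubiquitin at breaks, fell to 5.998 FPKM with BMH-21, against 9.85 FPKM with DMSO. Of 20 other recombination genes 18 fell and 1 rose. Rpa1, the large subunit of the single-strand binding protein, and the nuclease partner gene Eme1 had log2 fold changes of −1.05 and −1.13. Swi5, a recombination accessory factor, was called higher, at 70.8 ± 4.7 and 62.1 ± 1.7 FPKM in BMH-21 and DMSO libraries, a call lost with column totals made equal (0.064).

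Of 10 other Fanconi genes 7 fell and 1 rose, near the 58.4% lower and 19.9% higher of all genes tested. Ube2t, the conjugating enzyme that works with FANCL, fell to 0.973 ± 0.16 FPKM with BMH-21, against 3.59 ± 0.16 FPKM with DMSO, and Usp1, which removes ubiquitin from FANCD2, to 13.9 ± 0.63 FPKM, against 27.99 ± 0.79 FPKM with DMSO. Fance, which contacts FANCD2, had a log2 fold change of −0.51, and the nuclease gene Dclre1b rose, at 0.37 ± 0.05 (limma adjusted p = 5e-05). The mismatch repair gene Mlh3 was called lower, at −0.35, a call lost with quantile normalization at −0.076. Of 6 other end joining genes 3 were called lower, a share under the 58.4% of all genes tested: Paxx, a partner of Ku, at −0.74, the polymerase gene Poll at −0.48 and the scaffold gene Aplf at −0.19. The Aplf call was lost without BMH-21 replicate 3, DMSO replicate 1 or DMSO replicate 3 and with upper-quartile scaling (−0.029), and its sign turned with median-ratio scaling (0.0010) and quantile normalization (0.11).

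Of 21 other genes of base excision, single-strand break and direct repair, 15 fell and 1 rose. The flap nuclease gene Fen1 was at −1.01 and Tdp1, which frees trapped topoisomerase I, at −1.04. Mgmt, which takes alkyl groups off guanine, rose, with 10.97, 11.5 and 11.6 FPKM in BMH-21 libraries and 5.96, 5.61 and 5.38 FPKM in DMSO libraries (log2 fold change 0.89 ± 0.05, limma adjusted p = 1.11e-07). Among 19 nucleotide excision genes 11 fell and 3 rose, close to the 58.4% lower and 19.9% higher of all genes tested. Ercc1, a nuclease subunit, fell to 3.65 ± 0.40 FPKM with BMH-21, against 7.46 ± 0.14 FPKM with DMSO, and Gtf2h4 had a log2 fold change of −0.61. Ercc6, the transcription-coupled repair ATPase, rose to 1.30 ± 0.10 FPKM, against 0.748 ± 0.043 FPKM with DMSO, having passed the filter through the BMH-21 libraries alone, and Cetn2 and Gtf2h3 rose by 0.35 and 0.44 on the log2 scale. Of 12 translesion genes 5 fell and 1 rose, both shares under those of all genes tested. Rad18, the ligase that marks stalled forks, was at −0.67, the fork remodelling gene Hltf at −0.51 and the polymerase gene Poli at −0.37 (a call lost with quantile normalization, at −0.070), and Ube2v2, a partner in ubiquitin chain building, at 0.32.

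**Figure D5:**
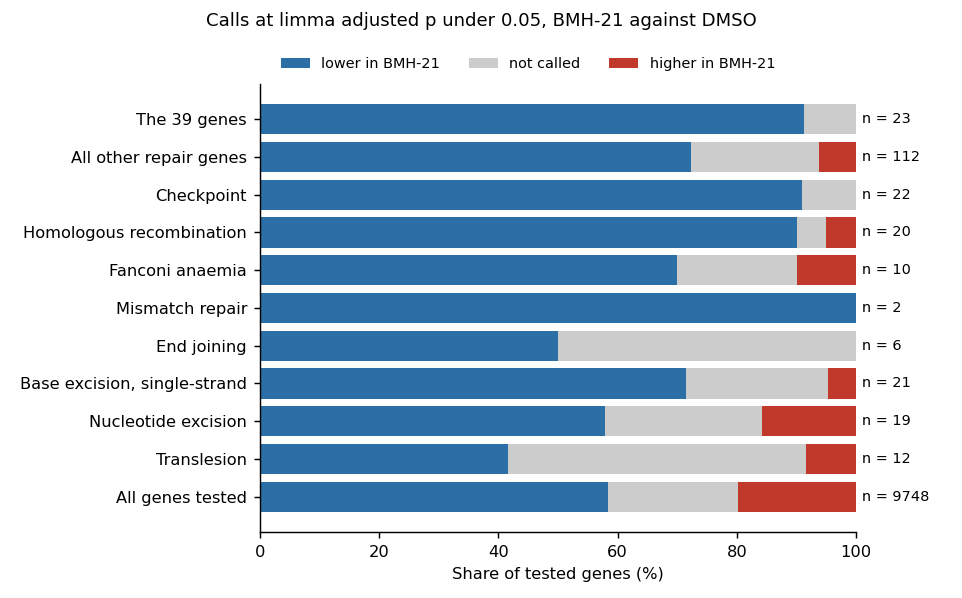
Share of tested genes called lower, not called and called higher in BMH-21 (limma adjusted p under 0.05), for the 39 genes (23 tested), for the 112 other repair genes tested and their lists, and for all 9748 genes tested. Of the 39 genes 21 of 23 tested are called lower and 0 higher, and of all genes tested 58.4% are lower and 19.9% higher.

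Of the readouts of the cell cycle and of p53, Mki67 and Pcna fell and Cdkn1a and Mdm2 rose. Mki67, a marker of cycling cells, had 1.92, 1.92 and 2.03 FPKM in BMH-21 libraries and 9.57, 10.4 and 9.54 FPKM in DMSO libraries. Pcna, the sliding clamp of replication and repair, was at 70.2 ± 3.7 FPKM with BMH-21 and 118 ± 1.8 FPKM with DMSO. The p53 targets Cdkn1a, the cell cycle inhibitor p21, and Mdm2, the ligase that degrades p53, were at 249.9 ± 3.1 and 40.7 ± 1.3 FPKM with BMH-21, against 119 ± 4.0 and 22.4 ± 0.81 FPKM with DMSO. Polr1a, the large subunit of RNA polymerase I, overlapped between groups, at 1.05 ± 0.031 and 0.982 ± 0.065 FPKM in BMH-21 and DMSO libraries (SD, n = 3 each), and was called higher with median-ratio (0.19), upper-quartile (0.17) and quantile (0.34) scaling. The part of a changed cell cycle in the levels of the repair genes was not tested.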

How the data were processed

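Polysome-fraction RNA of 6 libraries was compared, 3 BMH-21 and 3 DMSO, with groups and replicate numbers from the sample titles. The deposited table gives FPKM values for 19233 genes, a unit inferred here from the values. The submitters' processing notes name Trimmomatic 0.38, HISAT2, SAMtools and mm10, and how reads were counted is not given in the sources used here. Because FPKM is relative to each library, a rise of abundant genes lowers all others. Depth was read from the steps of low values of genes with 1 transcript, of which 75.6% to 77.6% per library lay within 0.01 of a whole number of reads, too few to recover counts.

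Values were transformed as log2(FPKM + 1), and fold changes on that scale understate low genes. A gene was tested when 3 libraries or more reached 1 FPKM (9748 genes, 50.7%). The fit used limma 3.58.1 (R 4.3.3) with its trend option, and Benjamini-Hochberg adjusted p was taken at 0.05 over all of them. The test was checked on simulated data. The labels do not say that replicates are separate cultures, and p-values therefore reflect only library-to-library spread, which may be technical. The 39 genes and all lists were chosen with earlier results of these data known. Named genes were the 39, up to 3 called higher and 3 called lower of each other list by ascending p, and Cdkn1a, Mdm2, Mki67, Pcna and Polr1a. Some genes that this rule names are not reported here. Partners with shared exons were named after their values were seen. Positions and exons came from GENCODE M21 on GRCm38, the assembly of mm10, and promoters from RefSeq. Alternatives covered scaling, pseudocount, filter, variance trend, replicate block and each library left out.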

Additional observations from a re-analysis of the deposited data

How the results depend on the processing

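With median-ratio scaling 3643 genes were called higher and 3546 lower, with quantile normalization 3517 higher and 3498 lower, and with upper-quartile scaling 3349 were called higher. Under these 3 scalings the 39 genes had 2, 1 and 1 called higher and the other repair genes 24, 27 and 18, with 50 other repair genes lower under quantile normalization. Each of the 3 left 1 mismatch repair and 1 end joining gene lower, and quantile normalization left 1 MRN and 3 recombination genes lower. Relative to all genes tested, the median of the 23 tested genes was −0.41 with median-ratio scaling and −0.58 with a pseudocount of 0.1, that of 11 genes −0.62 with a mean of at least 3 FPKM, and that of all 39 −0.40 with no filter and −0.71 with no filter and a pseudocount of 0.1, an alternative chosen after seeing the data, as were the alternatives for single genes outside the 39.

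With no filter 34 of the 39 genes were called lower (6 checkpoint, 10 recombination, 5 Fanconi and 4 end joining), and with the pseudocount of 0.1 as well 33 (6, 9, 5 and 4). A mean of at least 3 FPKM left 11 of the 39 genes to test, with 10 lower, among them 1 checkpoint, 1 MRN, 3 recombination, 0 Fanconi, 0 mismatch repair and 1 end joining gene, and 43 other repair genes lower. At a mean of at least 1 FPKM 1 mismatch repair gene was lower, and 1 was tested. The changes between filters follow from how many genes each keeps. The step from 34 to 33 left the genes tested unchanged and lost Brca1, at limma adjusted p = 0.0605. For scaling, the cause was not tested.

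Signs turned for Pms2 (0.095), Xrcc4 (0.017), Apex1 (−0.014) and Aplf (0.11) with quantile normalization, for Xrcc5 (−0.070), Apex1 (−0.10) and Polr1a (−0.015) with equal column totals and for Aplf with median-ratio scaling (0.0010). Leaving out each library in turn gave 20 to 21 of the 39 genes lower and 0 to 0 higher, a relative median of −0.40 to −0.33, 1 to 2 mismatch repair genes lower and Xrcc5 log2 fold changes of −0.093 to 0.087. With the replicate block 21 of the 39 genes were called lower and 0 higher, with no call among them changed, and over all genes 5608 lower and 1894 higher. Deviations of same-numbered libraries correlated at −0.11, −0.09 and −0.06, so no pairing by number was visible. These values cannot show whether same-numbered libraries were prepared together. Depth limits Fancb, Bard1 and Fanci most.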
